A study of Enchytraeus albidus with 42 samples.

Results

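The transcripts of actin were followed in the soil worm Enchytraeus albidus, a small annelid used in ecotoxicology, after exposure to an insecticide, a herbicide or a fungicide. The members were the entries of the study's list of named affected genes whose name is actin or holds actin as a separate word, and 21 of the 225 named entries and of the 1035 transcripts on the array met this rule. The list gives 12 of them as actin, 1 as actin 1, 1 as actin beta, 2 as beta actin, 1 as beta-actin, 2 as cytoplasmic actin and 1 as muscle actin. The remaining 1, EAC00396, is a 41 kDa subunit of the Arp2/3 complex, which the rule takes in by the word and which is an actin partner and not an actin. The names come from sequence similarity to other animals, so that muscle or cytoplasmic states the best match and not a measured tissue. Because the study drew that list from these same arrays, by t-tests of the exposed groups against their controls, counts of affected members are no independent evidence that actin responds.

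Total RNA of whole adult worms was hybridised to 42 one-colour arrays, 3 for each of 14 groups, and each array held the worms of 1 vessel. The exposed groups were dimethoate at EC10, EC20, EC50 and EC90 (0.1, 0.5, 2 and 25 mg per kg soil), atrazine at 0.2, 0.5, 3 and 50 mg per kg and carbendazim at 0.05, 0.1, 0.5 and 3 mg per kg, where ECx is the concentration that lowers the number of juveniles by x percent. Atrazine and carbendazim were set against the solvent control, whose soil had received acetone, and dimethoate was set against the water control. All worms were adults kept for 2 days in 25 g of soil, with 15 worms per vessel by the sample labels and 10 by the methods. As whole worms were used, a tissue that made up less of the worm and a tissue with less actin RNA in its cells cannot be told apart.

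Actin is a globular protein that polymerises into filaments. In the body wall muscle of annelids these thin filaments slide along myosin thick filaments, under the control of tropomyosin and troponin, while the cytoplasmic forms make up the cortex and the protrusions of other cells. Animals usually carry several actin genes with nearly the same protein sequence, and actin genes are often taken as references in expression studies because their level is assumed to be steady.

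Most of the actin probes gave strong signals. Values are log2 signals after each array was shifted to the median array, and they are compared only within a transcript, since probes differ in brightness for the same amount of RNA. Of the 21 members, 18 were well above background on all 42 arrays. The Arp2/3 subunit EAC00396 was so on 39 arrays, the beta actin EAC00254 on 14 and the actin EAC00406 on 0, so that EAC00406 stays in the counts over the 21 members but its own change is not given. At the other end, the actin EAC00105 had more than 0.5 of its spots saturated on 25 arrays and the actin EAC00024 on 3, and for no other member was this so on any array. EAC00105 was saturated in all 3 arrays of atrazine EC10, atrazine EC20 and carbendazim EC50, where its signal is a lower bound and no fold change is given. Each transcript was printed in many copies, and 10 to 15 spots per array entered each mean. The spots of 1 array differed little, with a median coefficient of variation between 3.48% and, for EAC00254, 27.4%, and a median over the members of 4.72%. The pooled SD between replicate arrays lay between 0.18 log2 (EAC00223) and 1.01 log2 (EAC00523), against a standard error of the spot mean between 0.013 and 0.106 log2. The spread that limits the comparisons was therefore that between vessels and arrays.

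Of the 42 arrays, 2 stood apart: the first replicate at dimethoate EC10 (replicate 1) and the second at EC20 (replicate 2). Set against the mean of the 3 water controls, 21.3% and 21.2% of all transcripts were more than 1 log2 lower in them and 24.6% and 24.8% more than 1 log2 higher, whereas the other 10 dimethoate arrays had between 0.773% and 4.64% lower and between 0.966% and 11.9% higher. Both were on the slide that also held water control replicates 1 and 2, dimethoate EC10 replicate 3 and dimethoate EC20 replicate 3, but in a scan of their own. Their unshifted median signals were 6.61 and 6.46 log2, against 7.69 to 8.05 log2 on the other 4 arrays of the slide. These were the 2 lowest medians of the 42 arrays, and the next was 6.97 log2 in solvent control replicate 2. Of their transcripts 78.7% and 77.7% were well above background, where the 42 arrays ranged from 74.7% to 94.5%. Only atrazine EC50 replicate 3 (74.7%) and carbendazim EC90 replicate 1 (75.4%) had lower shares. The part of the scan in the results was not tested. Changes of named members that rest on them are given with and without them.

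**Figure D1:**
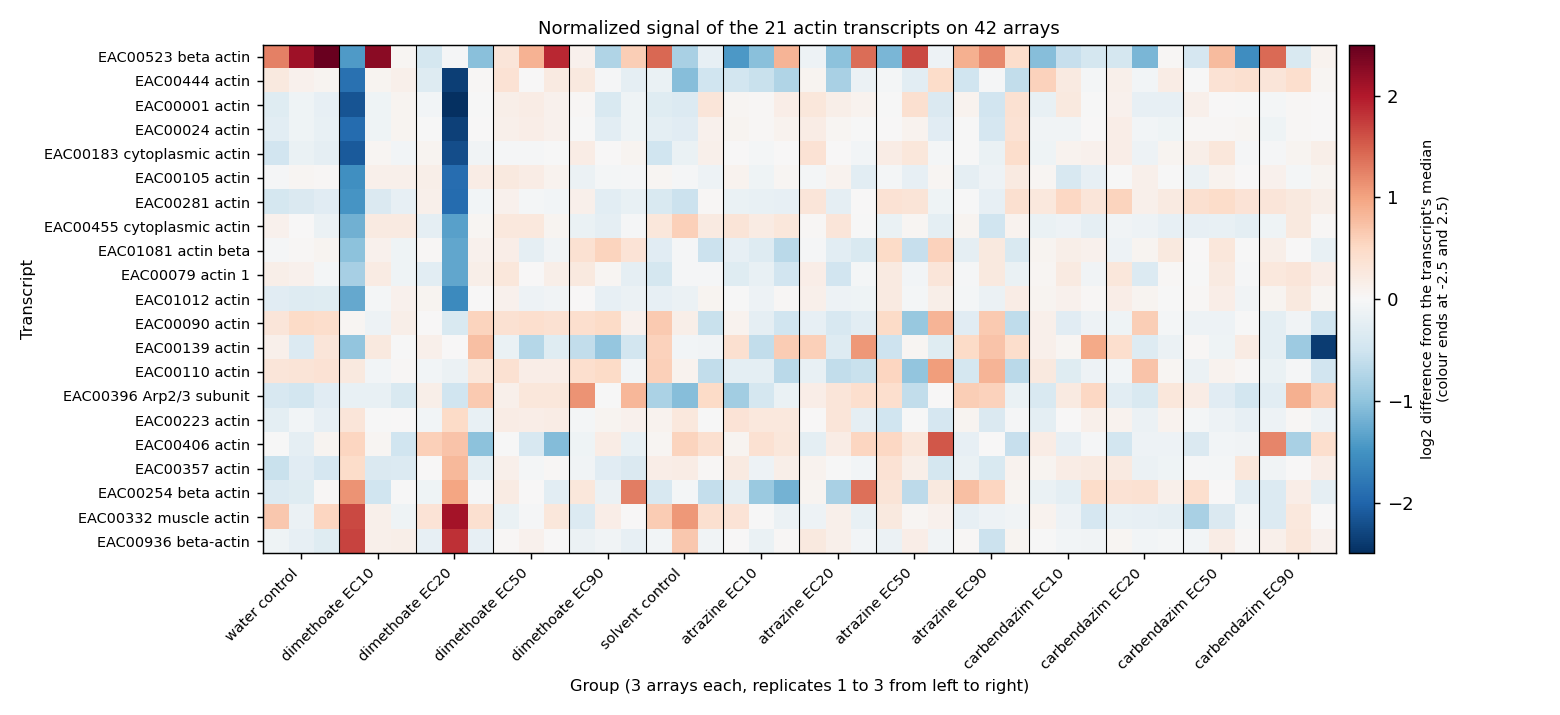
Normalized log2 signal of each of the 21 members (rows) on the 42 arrays (columns, 3 per group), as the difference from the transcript's own median, in colour from blue (lower) to red (higher). In the 2 arrays that stood apart, at dimethoate EC10 and EC20, 10 members were below and 3 above all other 40 arrays, and EAC00523, in the top row, had the widest spread between replicates.

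The 21 members did not move as a block in the 2 arrays. Compared with the other 40 arrays, 10 members (47.6%) were lower than in any of them, 3 (14.3%) were higher and 8 were neither, and over all 1035 transcripts 22.0% were lower and 21.4% higher. Among the 10 below, the lowest shifts were those of the actins EAC00001, EAC00024 and EAC00444 and of the cytoplasmic actin EAC00183, and the 3 members above were the beta-actin EAC00936, the muscle actin EAC00332 and the actin EAC00357.

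The actin EAC00001 had log2 signals of 12.52, 14.56 and 14.74 in dimethoate EC10, 14.59, 12.11 and 14.66 in EC20, 14.81, 14.85 and 14.76 in EC50, and 14.69, 14.29 and 14.56 in EC90, against 14.37, 14.56 and 14.47 in the water control. The low values were those of the 2 arrays, with differences of -1.95 and -2.35 log2 from the water control mean, and the other 10 exposed arrays were between 14.29 and 14.85. All 3 arrays of EC50 were above the water controls. The actin EAC00024 followed the same course, with 13.67, 15.47 and 15.65 in EC10, 15.56, 13.24 and 15.60 in EC20, 15.71, 15.75 and 15.69 in EC50, and 15.56, 15.31 and 15.48 in EC90, against 15.32, 15.48 and 15.40 in the water control. In the group means EAC00001 was 0.53 ± 0.43 log2 lower at EC10 and 0.68 ± 0.43 log2 lower at EC20 than in the water control (log2 changes of -0.53 and -0.68, SE of the limma fit), and neither passed the test (adjusted p 0.63 and 0.482). Both changes turned positive without the 2 arrays, at 0.18 and 0.16 (limma, adjusted p 0.992 and 0.996).

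The beta-actin EAC00936 ran the other way. It had 16.74, 15.17 and 15.20 in dimethoate EC10, 14.85, 16.89 and 14.85 in EC20, 15.09, 15.16 and 15.06 in EC50 and 14.90, 14.96 and 14.85 in EC90, against 14.95, 14.85 and 14.75 in the water control. The muscle actin EAC00332 had 16.00, 14.46 and 14.23 in EC10, 14.68, 16.42 and 14.75 in EC20, 14.18, 14.32 and 14.63 in EC50 and 13.99, 14.50 and 14.34 in EC90, against 15.02, 14.20 and 14.88 in the water control. For both transcripts the 2 arrays were above all others of the series, and outside them the dimethoate arrays lay between 14.85 and 15.20 for EAC00936 and between 13.99 and 14.75 for EAC00332.

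**Figure D2:**
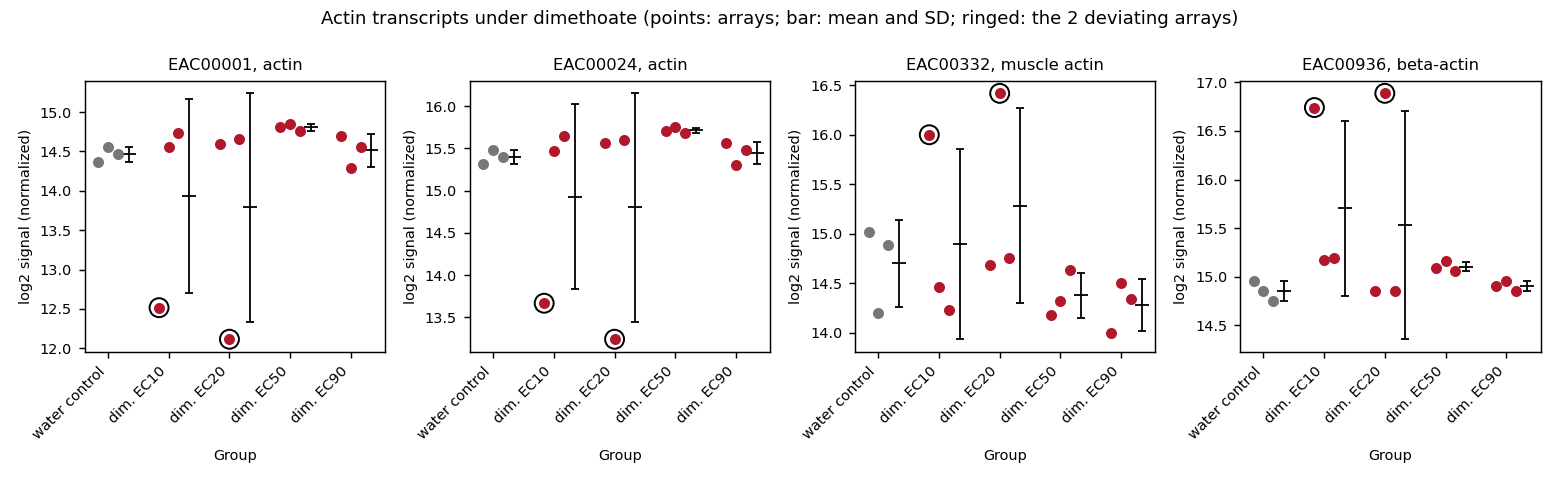
Normalized log2 signals of EAC00001, EAC00024, EAC00332 and EAC00936 in the water control and the 4 dimethoate (dim.) concentrations, with 1 point per array, the mean and SD beside each group (3 arrays) and a ring around the 2 arrays that stood apart. EAC00001 and EAC00024 were low and EAC00332 and EAC00936 high in the ringed arrays, and the other arrays lay close to the water control.

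No member was differentially expressed in any dimethoate concentration against the water control (limma, adjusted p under 0.05 over 1035 transcripts), while over all transcripts 0%, 0%, 1.55% and 3.19% were called at EC10, EC20, EC50 and EC90. Without adjustment, 7 of the 21 members were below 0.05 in at least 1 concentration, against 26.2% of all transcripts, and with the t-test named in the methods, by which the study chose its list, 14 were below 0.05, where 30.2% of all transcripts were, and 0 after adjustment. The members had a median change of -0.28 for EC10, -0.31 for EC20, 0.18 for EC50 and 0.05 for EC90, and that of all transcripts lay between -0.02 and 0.04. Without the 2 arrays the medians at EC10 and EC20 were 0.08 and 0.06, and again no member was called, against 6.09% of all transcripts called in at least 1 concentration. When each array was scaled to its 75th percentile, the median over all transcripts at EC50 came to -0.25 and that of the members to -0.06.

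How the response depended on dose was also asked. All arrays of dimethoate EC50 and EC90 were on the same slide, which held no array of EC10 or EC20. Dose and slide can therefore not be told apart within these groups. Taking EC50 and EC90 together against EC10 and EC20, 15 of the 21 members were higher and 6 lower, with a median change of 0.41, against 0.05 over all transcripts. Only the muscle actin EAC00332 passed the test, with a change of -0.76 ± 0.25 (limma, adjusted p 0.0348), where 17.3% of all transcripts were called, and 11 members were below 0.05 without adjustment, where 34.6% of all transcripts were. The 3 members with the largest changes were EAC00444 with 0.82 ± 0.29 (limma, adjusted p 0.0537), EAC00001 with 0.80 ± 0.31 (adjusted p 0.0656) and the cytoplasmic actin EAC00183 with 0.76 ± 0.28 (adjusted p 0.0558).

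These changes were not seen without the 2 arrays. The median over the members was then 0.07 and no member was called by limma, against 7.92% of all transcripts. Without adjustment 1 member was below 0.05, a count that has no share over all transcripts beside it. With all arrays the methods' t-test gave 0 members with and without adjustment, where 19.1% of all transcripts were below 0.05 without it. In the fit without the 2 arrays EAC00332 changed by -0.20 (limma, adjusted p 0.513), EAC00444 by 0.12, EAC00183 by 0.05, EAC00001 by 0.02 and EAC00024 by 0.01. Leaving out a single array moved the count of members called in both directions, given here with the share over all transcripts. It was 0 without replicate 1 of EC10 (6.96%) or replicate 2 of EC20 (6.76%). It was 11 without replicate 2 of EC10 (26.2%) or replicate 3 of EC20 (31.7%). It was 10 without replicate 3 of EC10 (27.7%) or replicate 1 of EC20 (27.1%). It was also 0 without replicate 1 (11.8%) or 2 (12.9%) of EC50 or replicate 1 (12%) or 3 (13.7%) of EC90. No member was called with the slide as a block either, where 0% of all transcripts were called with a fixed block and 11.2% with a random one.

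**Figure D3:**
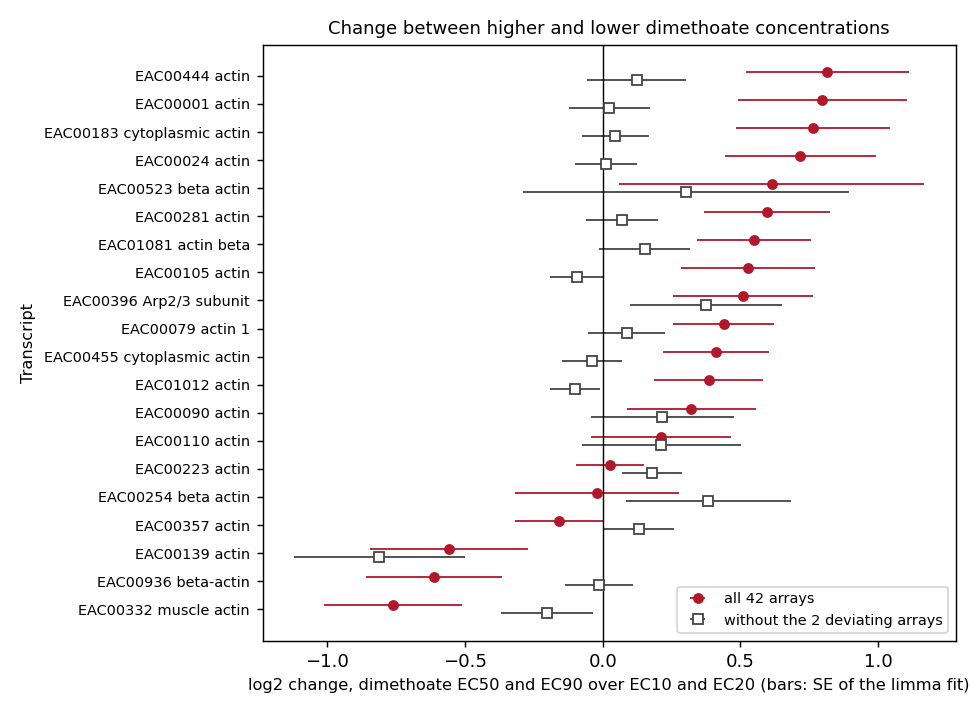
Log2 change of 20 members (all but EAC00406, which was never well above background) between dimethoate EC50 and EC90 and dimethoate EC10 and EC20 (x axis, bars show the SE of the limma fit), with all 42 arrays (filled) and without the 2 arrays that stood apart (open), where EAC00105 was saturated on 2 of 3 arrays each in EC50 and EC90. The muscle actin EAC00332 was at -0.76 with all arrays and at -0.20 without the 2, and EAC00001 at 0.80 and 0.02.

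In atrazine and carbendazim the muscle actin EAC00332 was low throughout. Its log2 signals were 14.68, 14.34 and 14.19 in atrazine EC10, 14.22, 14.47 and 14.16 in EC20, 14.58, 14.40 and 14.45 in EC50 and 14.14, 14.21 and 14.25 in EC90. In carbendazim they were 14.44, 14.22 and 13.93 in EC10, 14.15, 14.13 and 14.12 in EC20, 13.54, 13.97 and 14.30 in EC50 and 13.99, 14.60 and 14.36 in EC90. In the solvent control they were 14.98, 15.43 and 14.74. All 24 exposed arrays were thus below all 3 solvent controls, and 1 other of the 1035 transcripts had all 24 exposed arrays on 1 side.

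The change of EAC00332 lay between -0.85 and -0.58 in the 4 atrazine concentrations and between -1.12 and -0.73 in the 4 carbendazim concentrations, and all 8 comparisons share the same 3 solvent controls. None of the 8 passed the test in the fit with all arrays, where the smallest adjusted p was 0.18 at carbendazim EC50 (change -1.12 ± 0.35). The solvent control itself was 0.35 ± 0.35 log2 above the water control for this transcript (limma, adjusted p 0.669), and the 3 water controls, at 15.02, 14.20 and 14.88, overlapped with the exposed arrays. The solvent controls were spread over 3 slides, with 1 on each. Set against the solvent control of the same slide, EAC00332 differed by -1.20 to -0.17 on 9 atrazine arrays and by -1.44 to -0.62 on 5 carbendazim arrays. That all of these were lower was fixed by every exposed array lying below every solvent control, so only the sizes are informative. EAC00332 stayed below the solvent control in all 8 comparisons under each of the other scalings and the other background correction.

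The cytoplasmic actin EAC00455 was also low against the solvent control. Of the 12 carbendazim arrays 11 were below all solvent controls, as were 9 of the 12 atrazine arrays. Its signals were 15.16, 15.21 and 15.11 in carbendazim EC10, 15.23, 15.21 and 15.12 in EC20, 15.13, 15.14 and 15.08 in EC50 and 15.22, 15.57 and 15.36 in EC90, against 15.61, 15.92 and 15.56 in the solvent control. With the normexp background correction the change under atrazine had no single sign, with 2 concentrations lower and 2 higher.

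Another pair of transcripts, both named actin only, was higher under carbendazim. EAC00281 had 14.85, 15.10 and 14.88 in EC10, 15.13, 14.71 and 14.81 in EC20, 14.99, 15.04 and 14.93 in EC50 and 14.88, 14.82 and 14.74 in EC90, against 14.21, 14.04 and 14.61 in the solvent control. EAC00444 had 9.40, 9.04 and 8.76 in EC10, 8.94, 8.76 and 9.01 in EC20, 8.81, 9.18 and 9.21 in EC50 and 9.12, 9.23 and 8.86 in EC90, against 8.65, 7.75 and 8.32 in the solvent control. For both transcripts all 12 carbendazim arrays were above the 3 solvent controls, which held for 52 of the 1035 transcripts, and the changes over the 4 concentrations were 0.52 to 0.70 for EAC00281 and 0.66 to 0.83 for EAC00444. With the slide as a fixed block they were 0.05 to 0.77 for EAC00281 and 0.35 to 0.515 for EAC00444 (limma, smallest adjusted p 0.861 and 0.878), and the EC10 and EC20 arrays share no slide with a solvent control. On the 1 slide that held both carbendazim and a solvent control, 5 carbendazim arrays were set against 1 control array. EAC00281 was higher there by 0.53 to 0.83 and EAC00444 by 0.17 to 0.57. The direction was fixed by all 12 carbendazim arrays lying above the 3 solvent controls. Against the same solvent controls EAC00281 was also higher in all 4 atrazine concentrations, by 0.11 to 0.48. EAC00444 was higher in 3 of these 4, with changes of -0.01 to 0.63. Of the 12 atrazine arrays, 4 for EAC00281 and 5 for EAC00444 were above all solvent controls. EAC00444 was lower in the solvent control than in the water control by 0.72 ± 0.42 log2 (change of -0.72, limma, adjusted p 0.584), and the water controls, at 9.06, 8.93 and 8.88, lay among the carbendazim arrays.

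**Figure D4:**
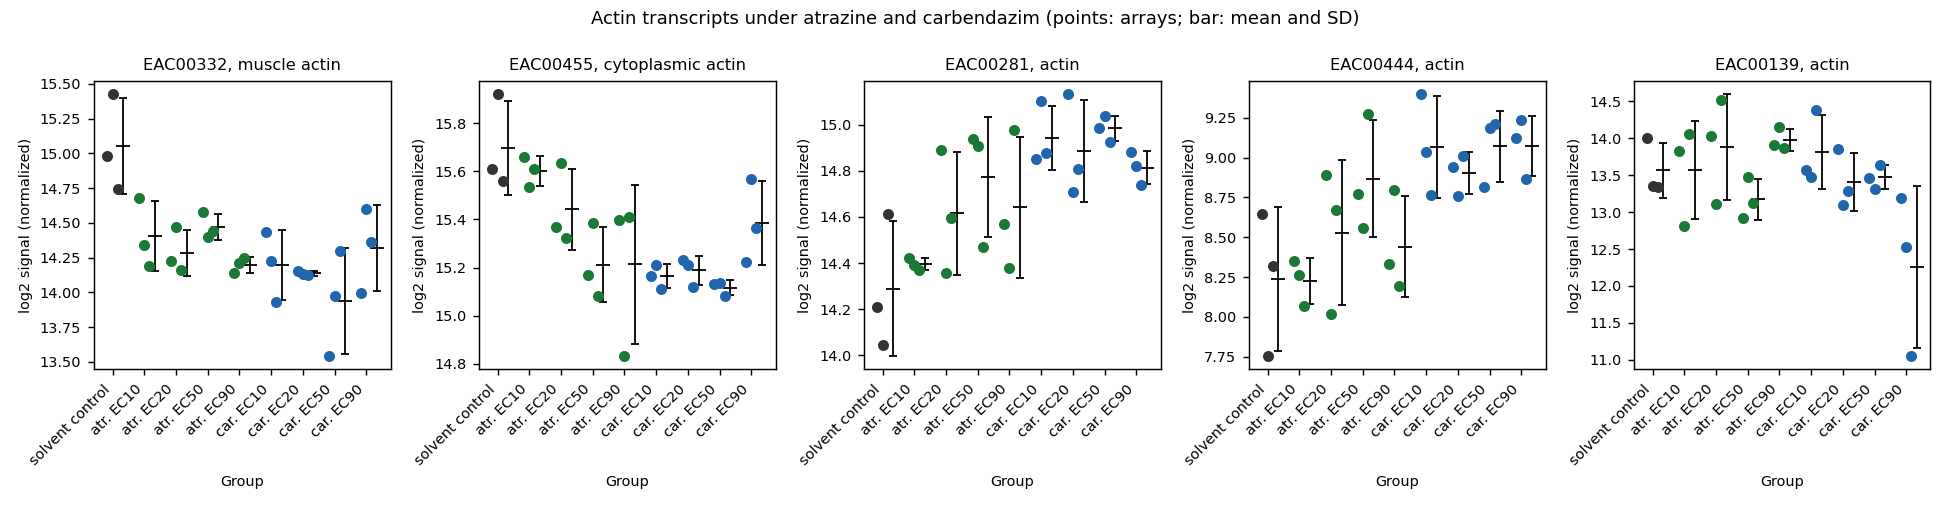
Normalized log2 signals of EAC00332, EAC00455, EAC00281, EAC00444 and EAC00139 in the solvent control and in 4 concentrations each of atrazine (atr.) and carbendazim (car.), with 1 point per array and the mean and SD beside each group (3 arrays). All 24 exposed arrays were below the solvent controls for EAC00332, all 12 carbendazim arrays were above them for EAC00281 and EAC00444, and EAC00139 was lowest in carbendazim EC90.

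With all arrays in the fit no member was differentially expressed in any concentration of atrazine or carbendazim. Of all transcripts 0% were called in each of the 4 atrazine concentrations, and 0.193%, 0.0966%, 0.386% and 3.77% in carbendazim EC10, EC20, EC50 and EC90. At an unadjusted p under 0.05 in at least 1 concentration there were 3 members for atrazine and 5 for carbendazim, where 20.4% and 28.8% of all transcripts were, and the methods' t-test gave 2 and 7 members without adjustment, where 15.9% and 32.3% of all were below 0.05, and 0 and 0 after it. The median change of the members lay between -0.04 and 0.12 in the 8 groups. Scaling to the 75th percentile moved the median over all transcripts by 0.29 at atrazine EC50, where that of the members then came to 0.41.

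The 2 arrays of dimethoate that stood apart also bear on these comparisons, since limma takes the spread of a transcript over all 14 groups. Their removal leaves every atrazine and carbendazim value as it is and lowers the spread, with a median SD between replicates over the members of 0.22 log2 without them and 0.44 log2 with them. Without them 2 members passed at atrazine EC90, where 3.29% of all transcripts did and 3.48% did in at least 1 atrazine concentration: EAC00332 (limma, adjusted p 0.0349) and EAC00455 (adjusted p 0.0498) were both lower. In carbendazim 5 members passed in at least 1 concentration, against 18.5% of all transcripts. They were 4 at EC10 (EAC00281, EAC00332, EAC00444 and EAC00455, where 4.25% of all were called), 3 at EC20 (EAC00281, EAC00332 and EAC00455, where 5.6% were), 4 at EC50 (the same 4 as at EC10, where 6.86% were) and 4 at EC90 (EAC00139, EAC00281, EAC00332 and EAC00444, where 13.6% were). The smallest adjusted p was 0.0048 for EAC00332 at EC50. With all arrays and the slide as a fixed block, the smallest adjusted p of EAC00332 was 0.84 under carbendazim and 0.516 under atrazine.

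The actin EAC00139 set carbendazim EC90 apart from atrazine EC90. It had 13.19, 12.53 and 11.05 in carbendazim EC90, against 13.91, 14.15 and 13.87 in atrazine EC90 and 14.00, 13.36 and 13.34 in the solvent control. All 3 carbendazim arrays were below all 6 others, and replicate 3 of carbendazim EC90 was the lowest array of the series for this transcript. The change was -1.73 ± 0.41 against atrazine EC90 (limma, adjusted p 0.0154), a 3.31-fold difference, where 1 member and 2.8% of all transcripts were called. Against the solvent control it was -1.31 ± 0.41 (adjusted p 0.0564). Carbendazim EC90 and atrazine EC90 had no slide in common, so that pesticide and slide cannot be told apart between these groups.

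The call against atrazine EC90 rests partly on replicate 3 of carbendazim EC90. Without it the change was -1.12 and no longer passed (limma, adjusted p 0.222), and it was lost without replicate 2 of atrazine EC90 as well, with the slide as a fixed block, with these 2 groups alone in the fit and with the methods' t-test after adjustment. Without the 2 dimethoate arrays EAC00139 remained the 1 member called (adjusted p 0.0059), where 6.76% of all transcripts were. In the lower carbendazim concentrations it had 13.56, 13.48 and 14.39 in EC10, 13.85, 13.10 and 13.28 in EC20 and 13.47, 13.32 and 13.64 in EC50, and EC20 overlapped with EC90. Its lowest group means were 12.25 in carbendazim EC90 and 12.76 in dimethoate EC90 and its highest 13.98 in atrazine EC90. In that order of the 14 means each of the 13 neighbouring pairs was closer than the larger of its 2 SDs.

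For EC50 and EC90 against EC10 and EC20 within atrazine and within carbendazim no member was called, where 0% and 0.966% of all transcripts were. At an unadjusted p under 0.05 there was 1 member in each, where 15.5% and 8.6% of all transcripts were. The largest changes were those of EAC00523 (0.72 ± 0.55), EAC00254 (0.50 ± 0.30) and EAC00110 (0.48 ± 0.25) in atrazine, where EAC00254 was well above background on 3 of 6 higher and 1 of 6 lower arrays, and of EAC00139 (-0.75 ± 0.29), EAC00523 (0.60 ± 0.55) and EAC00090 (-0.21 ± 0.23) in carbendazim. Without the 2 dimethoate arrays the actin EAC00223 passed in atrazine, with -0.37 ± 0.10 (limma, adjusted p 0.0249, where 6.18% of all were called). The differences of this contrast between pesticides called no member, where 5.7% of all transcripts were called between dimethoate and atrazine, 0% between dimethoate and carbendazim and 0.193% between atrazine and carbendazim. Without the 2 dimethoate arrays EAC00223 was called between dimethoate and atrazine, with a difference of 0.54 ± 0.15 (limma, adjusted p 0.0251), where 6.18% of all were.

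The beta actin EAC00523 varied most. Its signals were 8.00, 8.86 and 9.21 in the water control, 5.31, 8.99 and 6.79 in dimethoate EC10, 6.30, 6.71 and 5.70 in EC20, 7.04, 7.62 and 8.63 in EC50 and 6.85, 6.00 and 7.36 in EC90. The groups did not overlap at EC20 and EC90, where all exposed arrays were below the 3 water controls. It changed by -1.65, -2.45, -0.92 and -1.95 with rising concentration, each with an SE of 0.78, and none passed (limma, adjusted p 0.537, 0.357, 0.977 and 0.294). Without the 2 arrays that stood apart EC10 gave -0.80 and EC20 -2.68, and neither passed. Set against the water controls of the same slide, 10 of 10 dimethoate arrays were lower, by -3.21 to -0.58. For all EC50 and EC90 arrays that control was water control replicate 3 alone, at 9.21 the highest array of the series for this transcript. EC50 replicate 3, at 8.63, lay within the range of the 3 water controls. The remaining dimethoate arrays share no slide with a water control. Among them EC10 replicate 2, at 8.99, lay within the range of the water controls.

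EAC00523 was also lower in the solvent control than in the water control, with 8.18, 5.93 and 6.54 in the solvent control and a change of -1.81 ± 0.78 (limma, adjusted p 0.346). Under atrazine it had 5.29, 5.69 and 7.58 in EC10, 6.61, 5.72 and 8.13 in EC20, 5.60, 8.39 and 6.61 in EC50 and 7.62, 7.95 and 7.18 in EC90. Under carbendazim it had 5.67, 6.17 and 6.29 in EC10, 6.30, 5.59 and 6.77 in EC20, 6.32, 7.54 and 5.20 in EC50 and 8.16, 6.36 and 6.83 in EC90. Atrazine and carbendazim arrays overlapped with the solvent control in all 8 groups. The water control was the highest of the 14 group means, 0.92 log2 above dimethoate EC50, and of the 13 neighbouring pairs in the order of means this was the 1 with a gap above the larger SD (0.80). The spots of this transcript had a median coefficient of variation of 5.56%, so that its spread of 1.01 log2 between replicates lay between arrays and not between spots.

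**Figure D5:**
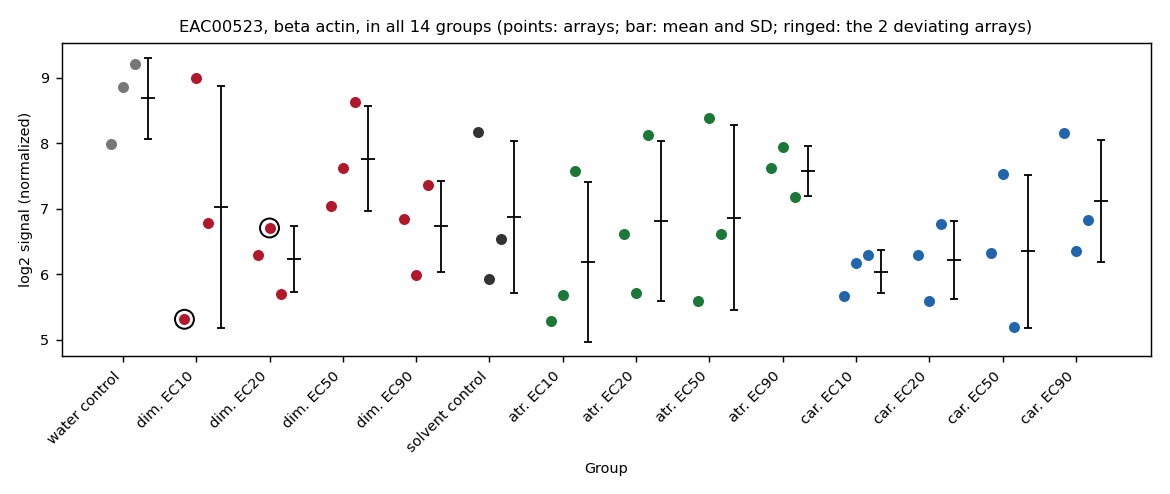
Normalized log2 signal of the beta actin EAC00523 in all 14 groups, with 1 point per array, the mean and SD beside each group (3 arrays) and a ring around the 2 arrays that stood apart (dim. dimethoate, atr. atrazine, car. carbendazim). The 3 water controls, between 8.00 and 9.21, were above all arrays of dimethoate EC20 and EC90, and the replicates of dimethoate EC10 lay between 5.31 and 8.99.

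The Arp2/3 subunit EAC00396, part of the complex that starts branched actin filaments, had its highest group mean in dimethoate EC90. It had 6.06, 4.93 and 5.78 in dimethoate EC90, against 4.55, 4.48 and 4.66 in the water control, a change of 1.03 ± 0.36 (limma, adjusted p 0.152). All 3 exposed arrays were above the water controls. With normexp the change was 0.42 (adjusted p 0.117), and without replicate 2 of EC90 it was 1.36 and passed (adjusted p 0.0399). The actin-related protein Arp2 on the array, EAC00006, another part of the same complex, rose by 0.51 at EC50 and EC90 against EC10 and EC20 and was called with all arrays (limma, adjusted p 0.0138), where EAC00396 had a change of 0.51 ± 0.25 (adjusted p 0.151). Without the 2 arrays Arp2 was not called (change 0.39, adjusted p 0.111).

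Between the solvent control and the water control no member was called, where 1.84% of all transcripts were, and 2 members were below 0.05 without adjustment, where 11.2% were. The methods' t-test gave 3 members without adjustment, where 13.9% of all were below 0.05, and 0 after it. Without the 2 dimethoate arrays the actin EAC00357 passed (limma, change 0.55 ± 0.16, adjusted p 0.0418), where 5.51% of all were called. It had 11.67, 11.68 and 11.54 in the solvent control, against 10.94, 11.22 and 11.08 in the water control, and the groups did not overlap.

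Over the 40 arrays without the 2 that stood apart, some actin transcripts ran closely together, given here as a description over arrays that share their scaling, slides and controls. The closest pair was EAC00090 and EAC00110, both named actin, with a Pearson r of 0.95, followed by EAC00001 and EAC00024 with 0.89. Both members of the first pair ran against EAC00001, with r of -0.70 and -0.75. In the 3 arrays of atrazine EC50, EAC00110 had 9.74, 8.21 and 10.24 and EAC00090 had 8.95, 7.52 and 9.33, which spans the whole range of both transcripts in the series, while EAC00001 had 14.65, 15.06 and 14.30. Probe sequences were not used here, and how far probes of near-identical actins read each other's RNA was not tested.

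Outside the members, the transcripts with the group means most like those of EAC00001 and EAC00024 over the 14 groups were led by the same 2 sequences without a name, Ealb_Met_P8_B10_SP6_2091145 (r of 0.97 and 0.96) and P2_B11_T7_1328963 (0.94 and 0.93). The third was the unnamed Ealb_Pest_P10_B3_SP6_2091098 for EAC00001 (0.88) and the myosin heavy chain EAC00167, the motor of the thick filament, for EAC00024 (0.91). Without the 2 arrays these r fell to between 0.38 and 0.78. For EAC00523 the closest were 3 unnamed sequences, Contig151 with 0.69, Ealb_Met_P3_A12_SP6_2090412 with 0.67 and Ealb_Pest_P7_E5_SP6_2092160 with 0.63, and 0.61 to 0.67 without the 2 arrays.

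The partners of actin on the study's list also lay on both sides in the 2 arrays, where 22.0% of all transcripts were below and 21.4% above the other 40 arrays. All 5 transcripts of sarcoplasmic calcium-binding proteins, which buffer calcium in invertebrate muscle, were above all other 40 arrays, as were 4 of the 12 thin filament regulators, all of them tropomyosins, 2 of the 10 thick filament transcripts, both myosin light chains, and thymosin EAC00210, 1 of the 3 nucleators, bundlers and monomer binders. Below all other arrays were 3 of the 10 thick filament transcripts, all 3 tubulins, subunits of microtubules, and 3 of the 4 intermediate filament transcripts. The muscle actin EAC00332 was high in the 2 arrays, as were the beta-actin EAC00936, these tropomyosins and the sarcoplasmic calcium-binding proteins. EAC00001 was low, as were 2 myosin heavy chains, the myosin alkali light chain EAC00541, tubulins and intermediate filament proteins. Myosin light and heavy chains were not split by side, and the heavy chain EAC00082 differed from the water control mean by -0.001 and 0.06 log2. The thin filament regulators did not move as a block. Troponin T (EAC00340 and EAC00496) and calponin transgelin EAC00494 were lower than the water control mean in both arrays, though not below all others. The calponins EAC00100, EAC00305, EAC00904 and EAC01033 were higher than that mean in both, though not above all others. The part of these partners in the actin changes was not tested, nor was that of the 2 blood pigment transcripts, which were on neither side.

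Between the higher and lower dimethoate concentrations 2 of 10 thick filament transcripts, 1 of 12 thin filament regulators, 1 of 3 tubulins and 2 of 4 intermediate filament transcripts were called higher (limma), where 17.3% of all transcripts were called in either direction, and none of these lists had a member called lower. Of the 3 nucleators, bundlers and monomer binders, Arp2 was called higher and thymosin EAC00210, a binder of actin monomers, lower, with a change of -0.87. Of the 5 sarcoplasmic calcium-binding transcripts none was called in either direction. Without the 2 arrays, where 7.92% of all were called, 1 of 10 thick filament transcripts and 1 of 12 thin filament regulators were called higher, 0 tubulins and 0 intermediate filament transcripts were called, and thymosin was called lower with -0.41. The thin filament regulator called both times was calponin transgelin EAC00494, an actin-binding protein of muscle, with 1.30 with all arrays and 0.93 without the 2 (limma, adjusted p 0.0425).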

How the data were processed

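The authors deposited scanner files of 42 arrays with background-subtracted signal intensities (Agilent Feature Extraction 10.5.1.1 in the submitters' processing notes), not normalized between arrays. Following the methods, the spots of a transcript were averaged, put on a log2 scale, and each array was moved to the median array by its median difference. Spots flagged as outliers were left out of the average, a step that the methods do not name. The deposited files hold no gene names. The study's list was therefore joined to the array by its 12 log2 ratios, used only as an identity key. A constant for each of the 12 ratios, from -0.51 to 0.61 log2, was fitted on the same matches and subtracted. All 225 entries then had a match within 0.00131 log2. Columns of the study's own ratios were used for nothing else, and the series matrix was not used. Limma 3.58.1 (R 4.3.3, data.table in version 1.17.8) was fitted over 14 groups and 1035 transcripts, with Benjamini-Hochberg adjustment (28 residual degrees of freedom, 3.94 prior), and every adjusted p comes from it. Replicates are separate vessels by the labels. Pandas 2.3.3, numpy 2.4.6 and matplotlib 3.10.9 (Python 3.11.15) made the figures and summaries.

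Members, lists and comparisons were chosen with earlier results of these data known. Named individually are EAC00001, EAC00024, EAC00523, members called in a comparison, the 3 with the largest change within each pesticide and, chosen after their values were seen, EAC00090, EAC00110 and EAC00223 in part, EAC00936, EAC00455, EAC00281, EAC00444, EAC00357 and EAC00396. Alternatives were scaling to the 75th percentile, quantile scaling, normexp (offset of 50, planned on mean signals, run on the median signals that the files hold), log2 averaging, a filter on dim transcripts, the methods' t-test, the compared groups alone, slide blocks, the solvent control for dimethoate and the removal of arrays. Replicate numbers did not pair the arrays, as in none of 14 comparisons did every same-numbered pair deviate together with r over 0.1. The fit was tested on simulated data. The number of arrays, 3 per group, limits the precision.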

Additional observations from a re-analysis of the deposited data

Results flagged for a closer look

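The actin EAC00223 and the actin EAC00444 are given because all arrays of 1 pesticide moved one way from their control and all arrays of another the opposite way at the same effect level. EAC00223 was higher by 0.36 log2 in dimethoate EC50 than in the water control, and its carbendazim EC50 change from the solvent control was -0.24, a difference of 0.60. EAC00444 changed by -1.02 in dimethoate EC20 and by 0.66 in carbendazim EC20, a difference of -1.68, and replicate 2 of dimethoate EC20, with 6.47 against 8.50 and 8.85 in the other replicates, is 1 of the 2 arrays that stood apart. Without these arrays the dimethoate EC20 change was -0.28 (limma, adjusted p 0.996). Neither difference was tested, and the controls of the 2 pesticides differ. Groups of 3 arrays are too small for a test of single outlying arrays.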

How the results depend on the processing

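Counts of members called are set beside those of the fit with all arrays, which were 1 for dimethoate EC50 and EC90 against EC10 and EC20, 1 for carbendazim EC90 against atrazine EC90 and 0 elsewhere. For the dimethoate contrast, scaling to the 75th percentile gave 2 (18% of all transcripts), normexp 5 (18.3%) and the filter on dim transcripts 3 (20.8% of 917). The slide as a fixed (0% of all) or random block (11.2%), the compared groups alone (2.42%) and the removal of the 2 arrays (7.92%) each gave 0. The methods' t-test also gave 0 with adjustment (1.45%) and without it (19.1%). Leaving out 1 array gave 0 to 11, where 6.76% to 31.7% of all were called. For carbendazim EC90 against atrazine EC90 the fixed slide block, the groups alone and the adjusted t-test gave 0, and leaving out 1 array gave 0 to 1. Without the 2 arrays the count was 2 for atrazine, 5 for carbendazim, 1 for atrazine EC50 and EC90 against EC10 and EC20, 1 for the difference of that contrast between dimethoate and atrazine and 1 for the solvent against the water control. The unadjusted t-test gave 14 for dimethoate, 2 for atrazine and 7 for carbendazim, where 30.2%, 15.9% and 32.3% of all transcripts were below 0.05. It gave 3 and 1 for the dose contrasts of atrazine and carbendazim (10.3% and 12.8% of all). For the solvent against the water control it gave 3 (13.9% of all). Leaving out 1 array gave 0 to 1 for dimethoate (1 without replicate 2 of EC90), 0 to 1 for carbendazim (1 without solvent control replicate 3 or carbendazim EC90 replicate 1) and 0 to 2 for the dose contrast of atrazine (2 without replicate 2 of EC50). These leave-out counts have no share over all transcripts beside them and are no result about the members. With the replicate block the counts stayed at 1 for both contrasts with a call and 0 elsewhere, and same-numbered arrays deviated with r between -0.28 and 0.29. Directions turned for EAC00455 under atrazine with normexp (2 of 4 concentrations higher) and for EAC00001 at dimethoate EC10 and EC20 without the 2 arrays, and why counts moved was not tested. Under the 75th percentile the median of all transcripts for the solvent against the water control was -0.28, and that of the members -0.23. Saturation limits EAC00105, and EAC00254 and EAC00406 were too dim for reliable changes.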
